A study of Mus musculus with 15 samples.

Results

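Belumosudil was given together with Wnt-C59 in one group of mice and Wnt-C59 was given alone in another, and the RNA of their skin was compared across all genes. The 8 libraries of these groups, 4 of each, were chosen by treatment from the 15 libraries of the study. All 8 came from recipients of an allogeneic bone marrow transplant, used in mice as a model of the scleroderma-like, chronic form of graft-versus-host disease, where grafted immune cells injure the host's skin. The combination group received belumosudil at 150 mg/kg and Wnt-C59 at 5 mg/kg, and the Wnt-C59 group received Wnt-C59 at 5 mg/kg alone. Both were dosed by mouth every day between day 21 and day 49 after the transplant, so that Wnt-C59 is common to both groups and the added belumosudil is the difference by design. The remaining libraries were of allogeneic (n = 3) and syngeneic (n = 4) recipients given the vehicle, 0.4% methylcellulose, and entered the filter on low counts and the estimate of spread, with their levels given for a few genes. No label gives strain, sex, age or a batch, and belumosudil without Wnt-C59 was not analysed here. The labels number replicates without saying that each is a separate animal, so p-values measure the spread between these samples.

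Wnt-C59 blocks porcupine, an acyltransferase whose lipid modification Wnt ligands need before they can leave the cell. Belumosudil inhibits ROCK2, a kinase activated by the small GTPase RhoA that raises the phosphorylation of myosin light chain, stabilises actin filaments and thereby releases MRTF, the actin-sensing partner of the transcription factor SRF. In fibrotic skin this pathway is known for the contractile state of myofibroblasts, and in T cells ROCK2 is known to favour the Th17 over the regulatory state through STAT3.

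The treated libraries held 18.99 to 28.78 M estimated counts. The skin markers Krt5, Krt14, Krt1 and Krt10 of the epidermis and Col1a1, Col3a1, Dcn and Pdgfra of dermal fibroblasts were present in all 8, with Krt5 at 9079.9 to 12773 CPM in the combination and 9633 to 11962 CPM in Wnt-C59 libraries, and with Dcn at 529.5 to 973 CPM in the combination and 389.9 to 1702 CPM in Wnt-C59 libraries. CPM here means counts per 1 M of the TMM-scaled library size. Libraries are called by the numbers in their column names, which are 2, 3, 4 and 5 for the combination and 1, 2, 4 and 5 for Wnt-C59, and values of a group are given in this order throughout. The labels do not explain the letters in the column names of the combination, and the match to this group rests on the remaining columns naming every other group.

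Within the combination group 2 libraries stood apart from the other 2. Hair follicle markers were abundant in combination libraries 4 and 5, and low in every other treated library. Their summed level over 28 tested members was 330.2, 262, 56949.8 and 6787 CPM in the combination libraries, against 444, 425, 443 and 399.8 CPM in the Wnt-C59 libraries. Krt71, which growing hair makes in its inner root sheath, was at 0.659, 0.914, 15144 and 2002 CPM in the combination libraries, against 0.564, 0.595, 0.677 and 0.760 CPM in the Wnt-C59 libraries. Among treated libraries only combination libraries 4 and 5 held this keratin above 1 CPM, and in syngeneic vehicle skin the summed level was 9144, 31228, 30377 and 17097 CPM. Skeletal muscle markers varied as well, with a summed level over 19 members of 41452, 16350.3, 3336 and 144 CPM in the combination libraries, against 21734, 47827, 65275 and 25185 CPM in the Wnt-C59 libraries. Combination library 5 nearly lacked them, with the muscle actin Acta1 at 4.12 CPM. Across genes, which are not independent replicates, combination libraries 2 and 3 correlated at r = 0.979 and libraries 4 and 5 at r = 0.953, while pairs of 1 library from each of these couples reached only 0.891 to 0.929. The 4 Wnt-C59 libraries correlated with each other at 0.962 to 0.975. In bulk tissue fewer cells of a type and less RNA per cell cannot be told apart, and the part of hair follicle and muscle RNA in the differences below was not tested beyond the values given. Results are therefore also given without combination libraries 4 and 5, an alternative chosen after seeing the data, in which the 2 remaining libraries are assumed to vary like the other groups.

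**Figure D1:**
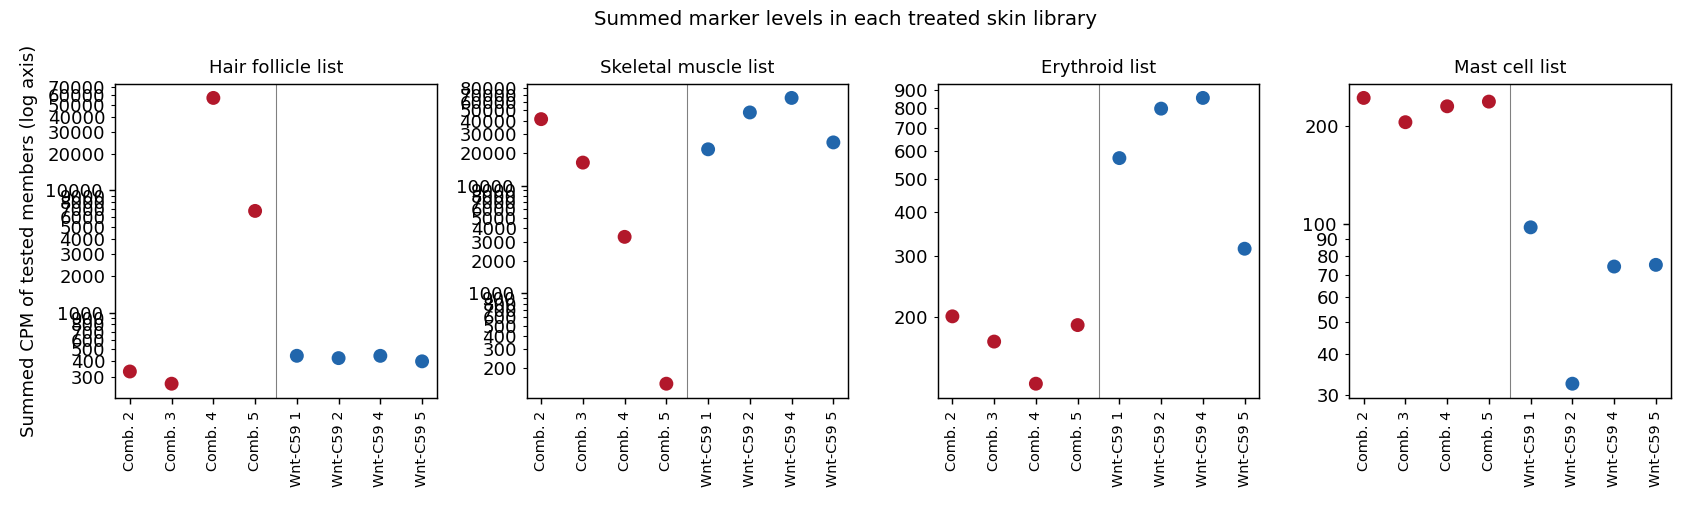
Summed CPM (log axis) of the tested members of 4 marker lists in each of the 8 treated libraries, 1 point per library, combination in red and Wnt-C59 in blue, with column numbers on the x axis. Hair follicle RNA is high in combination libraries 4 and 5 only, skeletal muscle RNA is lowest in combination library 5, and the erythroid and mast cell sums do not overlap between the groups.

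Adding belumosudil to Wnt-C59 went with few called differences. Of 18651 genes tested, 43 (0.231%) passed an adjusted p of 0.05 in edgeR's quasi-likelihood test with Benjamini-Hochberg adjustment, of which 19 (0.102%) were higher and 24 (0.129%) lower in the combination. All 43 had groups without overlap, and 35 differed by at least 2-fold on the fitted scale. Beyond the calls, the groups did not overlap at 2440 genes (13.1%), 1083 of them higher (5.81%) and 1357 lower (7.28%), and 3892 genes (20.9%) had an unadjusted p under 0.05, 2085 higher (11.2%) and 1807 lower (9.69%). DESeq2 called 1506 genes and limma-voom 65 on the same libraries. The median log2 fold change over all tested genes was −0.01. With combination libraries 4 and 5 left out the count was 380 of 19235 genes (1.98%), 257 higher (1.34%) and 123 lower (0.639%), and 37 of the 43 genes were among them. Of the 795 tested members of 51 gene lists, 7 were called, 1 higher and 6 lower.

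The calls lie close to the threshold, with adjusted p between 0.00492 and 0.0488, and single libraries decide many of them. Leaving out combination libraries 2, 3, 4 or 5 gave 17, 1, 45 and 29 called genes in all. Of these, 13, 1, 25 and 22 were among the 43. Leaving out Wnt-C59 libraries 1, 2, 4 or 5 gave 3, 3, 12 and 5 in all, with 2, 2, 10 and 4 among the 43. The fold changes themselves moved less. With 1 library left out, the log2 fold changes of the 41 genes with counts in both groups stayed between 0.694 and 1.17 times their value, and the adjusted p of all 43 stayed at or under 0.148. A gene known only by its clone name, 2310043M15Rik, chosen after its values were seen, was called under all 23 alternatives. It was at 0.970, 0.577, 1.24 and 1.67 CPM in the combination libraries, against 14.7, 8.78, 7.13 and 9.55 CPM in the Wnt-C59 libraries (log2 fold change −3.16 ± 0.36 SE, edgeR adjusted p = 0.00492). Every combination library was below every Wnt-C59 library, and no role is annotated for it in the sources used here.

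**Figure D2:**
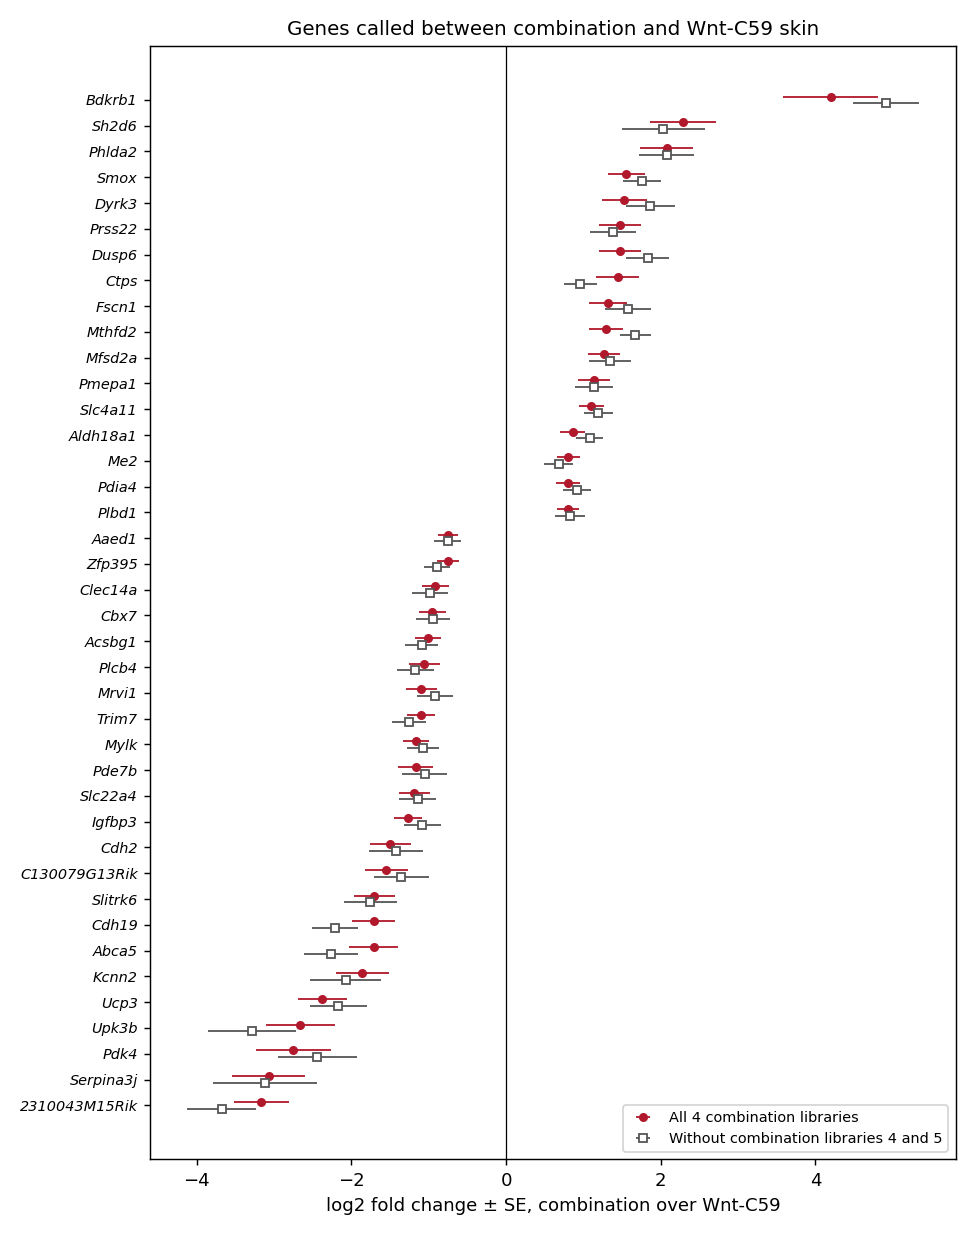
Log2 fold change of the combination over Wnt-C59 with its SE for 40 of the called genes with counts in both groups, from all 4 combination libraries (red circles) and without combination libraries 4 and 5 (open squares). All 40 keep their side of 0, for example Ucp3 at −2.37 and −2.17.

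Of the kinase pathway that belumosudil acts on, Mylk was the only called member, and it was lower. It encodes myosin light chain kinase, which phosphorylates the same myosin regulatory chain that ROCK keeps phosphorylated. Mylk (ENSMUSG00000022836) was at 71.8, 82.5, 56.7 and 80.2 CPM in the combination libraries, against 187, 173, 158 and 135 CPM in the Wnt-C59 libraries. The 4 combination libraries lay together at less than every Wnt-C59 library (log2 fold change −1.17 ± 0.17 SE, edgeR adjusted p = 0.0207), and without combination libraries 4 and 5 the value was −1.07 (adjusted p = 0.0247). Its call was lost without combination library 3 (adjusted p = 0.053) and without Wnt-C59 libraries 1 or 2 (0.058 and 0.067), and it was −1.17 (adjusted p = 0.085) with the replicate block. Without these 3 libraries in turn its log2 fold change was −1.23, −1.09 and −1.14. Rock2, the target of belumosudil, was at 36.4, 39.8, 44.8 and 37.7 CPM in the combination libraries, against 32.0, 46.7, 36.6 and 41.6 CPM in the Wnt-C59 libraries, and the groups overlapped (log2 fold change 0.02 ± 0.16 SE, edgeR adjusted p = 0.972). Rock1, its close relative, was at 13.0, 14.2, 16.1 and 19.1 CPM in the combination libraries, against 23.0, 19.9, 14.3 and 23.7 CPM in the Wnt-C59 libraries, also with overlap (log2 fold change −0.37 ± 0.21 SE, edgeR adjusted p = 0.323). A drug that blocks a kinase need not change its RNA, so these levels say nothing of ROCK2 activity. Of the 27 tested genes of ROCK signalling, 0 were called higher, 1 lower and 26 not called, and 2 were higher and 4 lower without overlap (5.81% and 7.28% of all genes), with a median log2 fold change of 0.08. Among the members without overlap, chosen after their values were seen, the actin-severing cofilins pointed opposite ways, with Cfl1 at 0.90 and the muscle form Cfl2 at −0.94. Skeletal muscle markers were lower in combination libraries 4 and 5, and with the skeletal muscle score as a covariate Mylk stood at −1.18 (adjusted p = 0.065). Smooth muscle and pericyte markers leaned lower as well, with 11 of 13 negative, 2 positive and a median of −0.50. Their part in the value of Mylk was not tested.

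Targets of SRF and its partner MRTF, the transcription factor pair downstream of actin, gave 0 calls among 21 tested (edgeR, with 6 at an unadjusted p under 0.05, 3 by DESeq2 and 0 by limma-voom) and a median of 0.17. Without overlap, 3 were higher and 1 lower (5.81% and 7.28% of all genes). Zyx, a protein of focal adhesions, had the smallest adjusted p of the list. It was at 366, 291, 303 and 225 CPM in the combination libraries, against 153, 159, 198 and 163 CPM in the Wnt-C59 libraries. The groups did not overlap (log2 fold change 0.81 ± 0.17 SE, edgeR adjusted p = 0.0547), and without combination libraries 4 and 5 it was called (0.98, adjusted p = 0.0265). The smooth muscle actin Acta2, the usual marker of myofibroblasts, was at 566, 498, 374 and 338 CPM in the combination libraries, against 508, 509.8, 584 and 359 CPM in the Wnt-C59 libraries. Its groups overlapped (log2 fold change −0.14 ± 0.26 SE, edgeR adjusted p = 0.792). Ccn2, a matricellular target of this pathway and of TGF-beta, had a log2 fold change of −0.32 (adjusted p = 0.438). Ccn1, its relative, chosen after its values were seen, was at 190.2, 539, 47.0 and 61.1 CPM in the combination libraries, against 75.7, 51.2, 72.8 and 33.7 CPM in the Wnt-C59 libraries, high in combination libraries 2 and 3 only.

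Ucp3 and Pdk4, which act in the use of fatty acids as fuel, fell. Ucp3 (ENSMUSG00000032942), a mitochondrial carrier that rises when muscle and fat burn fatty acids, was at 6.83, 5.15, 5.93 and 3.08 CPM in the combination libraries, against 25.6, 21.7, 37.7 and 24.0 CPM in the Wnt-C59 libraries. All combination libraries lay below all Wnt-C59 libraries (log2 fold change −2.37 ± 0.31 SE, edgeR adjusted p = 0.0179), and the call held under 21 of 23 alternatives, being lost without combination library 3 (−2.36, adjusted p = 0.053) and with the replicate block (adjusted p = 0.057). Pdk4 (ENSMUSG00000019577), the kinase that shuts pyruvate out of the citric acid cycle, was at 15.6, 20.7, 18.4 and 4.43 CPM in the combination libraries, against 83.5, 88.7, 105 and 121 CPM in the Wnt-C59 libraries. It showed no overlap either (log2 fold change −2.75 ± 0.49 SE, edgeR adjusted p = 0.0457), but held its call under 11 of 23 alternatives, with adjusted p up to 0.11 when 1 library was left out (without Wnt-C59 library 2). Both belong to the list of PPAR targets, of which 0 of 14 were called higher, 2 lower and 12 not called, 5 were lower without overlap (7.28% of all genes), and the median was −0.47. The other members without overlap, chosen after their values were seen, were enzymes of fatty acid oxidation, namely Acadm (−0.75), Ehhadh (−0.99) and the thioesterase Acot2 (−0.81), none of them called. Fabp4 and Plin2, lipid-handling members of the same list chosen likewise, stood at 0.17 and 0.17.

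Ucp3 and Pdk4 are abundant in skeletal muscle, whose markers differed between the libraries as given above. Without combination libraries 4 and 5 the values were −2.17 for Ucp3 (adjusted p = 0.0165) and −2.44 for Pdk4 (adjusted p = 0.0378). With the muscle score as a covariate they were −1.94 for Ucp3 (adjusted p = 0.047) and −2.33 for Pdk4 (0.098). The 19 skeletal muscle markers themselves gave 0 calls (edgeR, with 0 at an unadjusted p under 0.05, 0 by DESeq2 and 0 by limma-voom), all 19 overlapped, and their median was −1.42, or −0.53 without combination libraries 4 and 5.

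Pdk4 is also a classic target of the glucocorticoid receptor. In that list of 11 genes 0 were called higher, 1 lower (Pdk4) and 10 not called, while 2 were higher and 4 lower without overlap (5.81% and 7.28% of all genes), with a median of −0.67. Chosen after their values were seen, Zbtb16 (−1.25), Klf9 (−1.01) and the chaperone partner Fkbp5 (−0.84) lay lower, and the metallothionein Mt2 (1.35) and the cell cycle inhibitor Cdkn1a (0.59) higher, all without overlap and none called. Without combination libraries 4 and 5 Zbtb16 was called as well (−2.65, adjusted p = 0.0475).

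Cdh19, a gene of the Schwann cells that wrap peripheral nerves, fell. Cdh19 (ENSMUSG00000047216), a cadherin of Schwann cells and their precursors, was at 1.78, 1.15, 2.15 and 3.30 CPM in the combination libraries, against 7.84, 7.04, 5.62 and 7.03 CPM in the Wnt-C59 libraries. Every combination library lay below every Wnt-C59 library (log2 fold change −1.71 ± 0.28 SE, edgeR adjusted p = 0.0296). Of the 14 tested markers of nerve and melanocytes, 0 were called higher, 2 lower and 12 not called, with a median of 0.14. With all libraries the signs in the list differed by cell type, though no member was higher even at an unadjusted p under 0.05. Further Schwann cell members, chosen after their values were seen, were Mbp (−0.47), Sox10 (−0.68) and S100b (−0.79), all negative and none called, whereas the 8 pigment cell members lay between 0.00 (Mitf) and 2.21 (Tyr). The tyrosinase gene Tyr was at 2.26 and 3.12 CPM in combination libraries 4 and 5, which held the hair follicle RNA, against at most 0.475 CPM in the other treated libraries. The part of hair follicles in the pigment cell values was not tested. Without those 2 libraries the median of the list was −1.34, with Cdh19 at −2.21 (edgeR adjusted p = 0.0064), so the split by sign holds for the full comparison only.

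Other called genes that fell belong to no fixed list, and the rule of largest change named 8 of them. Igfbp3 (ENSMUSG00000020427), a secreted protein that binds insulin-like growth factors, was at 90.4, 113, 83.1 and 74.3 CPM in the combination libraries, against 193, 259, 231 and 184 CPM in the Wnt-C59 libraries. The highest combination library was below the lowest Wnt-C59 library (log2 fold change −1.27 ± 0.19 SE, edgeR adjusted p = 0.0207), and the call held under 19 of 23 alternatives, being lost without combination library 3 (adjusted p = 0.053), without Wnt-C59 libraries 1 or 2 (0.058 and 0.072) and with the muscle score as a covariate (0.070). Serpina3j, a protease inhibitor of a family with near-identical copies and therefore uncertain, was at 2.44, 1.83, 3.00 and 1.63 CPM in the combination libraries, against 20.7, 25.9, 12.0 and 16.0 CPM in the Wnt-C59 libraries (log2 fold change −3.07 ± 0.47 SE, edgeR adjusted p = 0.0296). Slitrk6, a neuronal membrane protein that guides neurite growth, was at 6.09, 6.25, 5.65 and 7.69 CPM in the combination libraries, against 21.5, 18.3, 16.4 and 27.7 CPM in the Wnt-C59 libraries (log2 fold change −1.71 ± 0.26 SE, edgeR adjusted p = 0.0279). For these genes, too, no combination library reached a Wnt-C59 library.

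Cdh2, or N-cadherin, averaged 3.00 ± 0.625 CPM in the combination and 8.47 ± 1.57 CPM under Wnt-C59 (SD, n = 4 each, log2 fold change −1.49). Abca5, a lysosomal lipid transporter, averaged 5.63 ± 2.23 CPM in the combination and 18.5 ± 3.20 CPM under Wnt-C59 (log2 fold change −1.71). The carnitine and ergothioneine transporter Slc22a4 (−1.18), the ubiquitin ligase Trim7 (−1.10) and Mrvi1, a substrate of cGMP-dependent kinase in smooth muscle (−1.10), completed the 12 largest falls, and these 5 genes had edgeR adjusted p between 0.0296 and 0.0457. Called genes outside the rule, listed after their values were seen, were Kcnn2, a calcium-activated potassium channel (−1.86), Upk3b, a uroplakin (−2.66), the phosphodiesterase Pde7b (−1.17), the phospholipase Plcb4 (−1.06), the Polycomb protein Cbx7 (−0.95), the endothelial lectin Clec14a (−0.92), and C130079G13Rik (−1.55), Zfp395 (−0.75) and Aaed1 (−0.75). Upk3b, Kcnn2 and Pde7b rest on few counts, with no treated library above 5.23 CPM.

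Acsbg1, an acyl-CoA synthetase, was the called member of the sebaceous gland list. It did not follow the list closely in vehicle skin, averaging 128 CPM in allogeneic and 156 CPM in syngeneic libraries. The mean log2 CPM of the list there was 1.22 to 2.19 in allogeneic and 5.49 to 5.78 in syngeneic libraries. Acsbg1 was at 273, 158, 273 and 212 CPM in the combination libraries, against 464, 474, 483 and 417 CPM in the Wnt-C59 libraries, with no overlap (log2 fold change −1.01 ± 0.17 SE, edgeR adjusted p = 0.0321). Of 16 sebaceous markers 0 were called higher, 1 lower and 15 not called, and 15 had a negative log2 fold change. Without overlap, 1 was higher and 2 lower (5.81% and 7.28% of all genes), and the median was −0.54 (−0.38 without combination libraries 4 and 5). Far2 and Mc5r, chosen after their values were seen as the enzyme that makes fatty alcohols of sebum and the melanocortin receptor of the gland, stood at −0.73 and −0.46, not called. The sterol synthesis list gave 0 calls among 22 (edgeR, with 2 at an unadjusted p under 0.05, 0 by DESeq2 and 0 by limma-voom) and a median of 0.02.

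The 12 largest rises by the rule were Phlda2, Smox, Dyrk3, Prss22, Dusp6, Ctps, Fscn1, Mthfd2, Mfsd2a, Pmepa1, Slc4a11 and Aldh18a1, none of which belongs to a fixed list. Smox (ENSMUSG00000027333), the oxidase that converts spermine to spermidine, was at 155, 235, 186 and 112 CPM in the combination libraries, against 56.6, 46.6, 77.2 and 53.8 CPM in the Wnt-C59 libraries. Its lowest combination library exceeded its highest Wnt-C59 library (log2 fold change 1.56 ± 0.23 SE, edgeR adjusted p = 0.0222). Mthfd2, a mitochondrial enzyme of folate metabolism that proliferating cells express, was at 27.5, 34.3, 15.5 and 18.8 CPM in the combination libraries, against 9.74, 10.1, 11.2 and 8.17 CPM in the Wnt-C59 libraries, highest in combination libraries 2 and 3 and without overlap (log2 fold change 1.29 ± 0.22 SE, edgeR adjusted p = 0.0369). Ctps, which makes CTP, was at 47.2, 70.2, 149 and 65.8 CPM in the combination libraries, against 30.1, 36.4, 28.5 and 26.9 CPM in the Wnt-C59 libraries (log2 fold change 1.44 ± 0.28 SE, edgeR adjusted p = 0.0488). Its combination values were led by library 4, and without libraries 4 and 5 the log2 fold change was 0.96 (adjusted p = 0.039). Aldh18a1, which makes the precursor of proline and ornithine, averaged 50.2 ± 10.7 CPM in the combination and 27.7 ± 4.32 CPM under Wnt-C59 (SD, n = 4 each, log2 fold change 0.86). Me2, a mitochondrial malic enzyme chosen after its values were seen, had a log2 fold change of 0.80 (adjusted p = 0.0457), and 0.68 (adjusted p = 0.0792) without combination libraries 4 and 5.

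**Figure D3:**
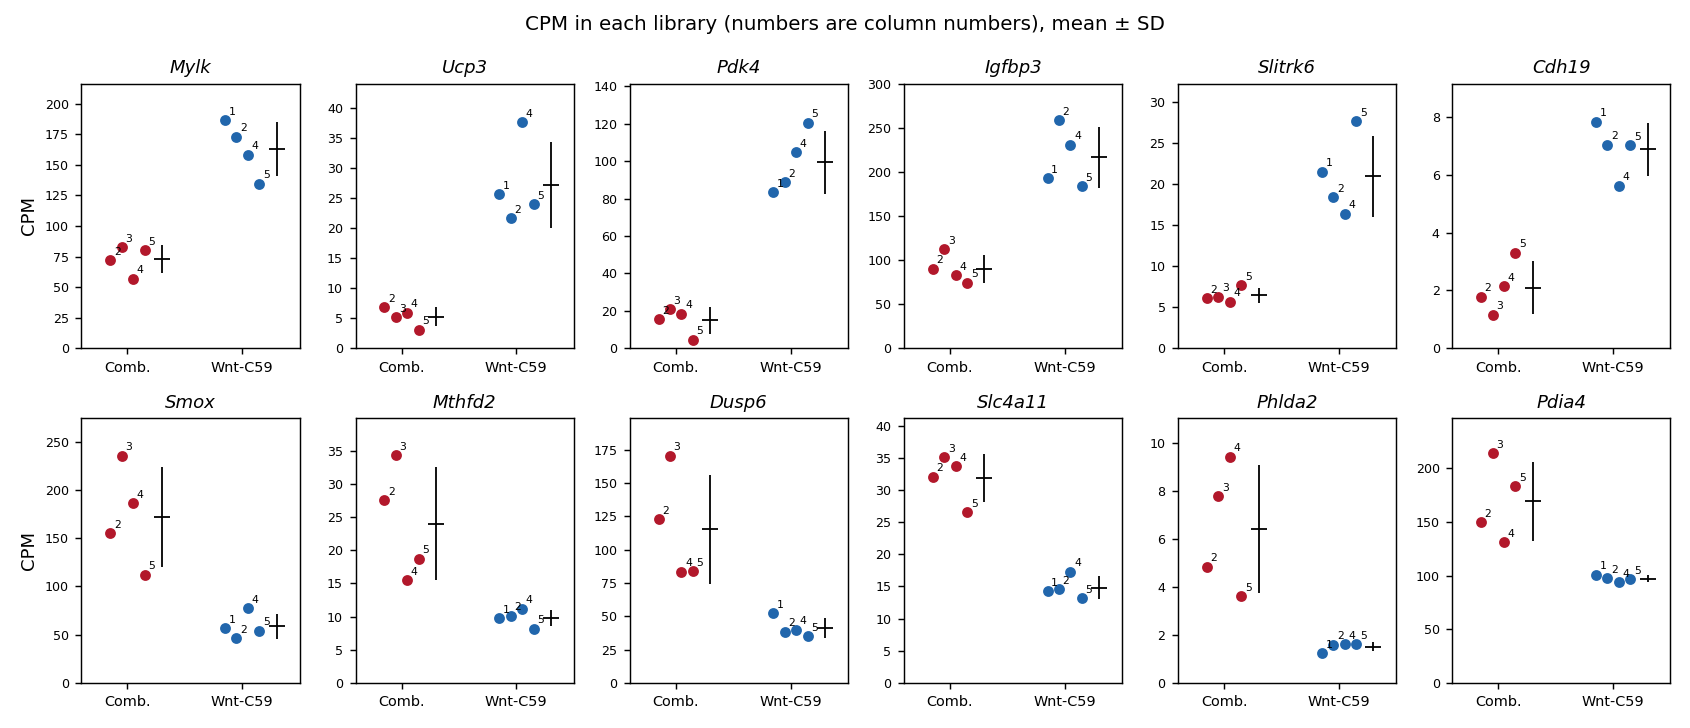
CPM in each library for 12 called genes, 6 lower (top row) and 6 higher (bottom row) in the combination, which stands left of Wnt-C59 in every panel, with column numbers beside the points and the mean ± SD (n = 4) as a black bar. In all 12 panels the points of the groups do not overlap, as for Mylk with 56.7 to 82.5 CPM in the combination against 135 to 187 CPM under Wnt-C59.

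Dusp6, Phlda2, Pmepa1 and Fscn1 rose by 1.13 to 2.08 on the log2 scale. Dusp6, a phosphatase that ERK signalling induces and that switches ERK off, was at 123, 170.4, 83.4 and 84.0 CPM in the combination libraries, against 52.4, 38.5, 39.9 and 35.1 CPM in the Wnt-C59 libraries. The groups were apart by a wide margin in libraries 2 and 3 and a smaller one in 4 and 5 (log2 fold change 1.47 ± 0.27 SE, edgeR adjusted p = 0.0457). Phlda2, an imprinted gene best known for limiting placental growth, was at 4.85, 7.79, 9.44 and 3.62 CPM in the combination libraries, against 1.23, 1.59, 1.61 and 1.62 CPM in the Wnt-C59 libraries (log2 fold change 2.08 ± 0.34 SE, edgeR adjusted p = 0.0296). Pmepa1, which TGF-beta induces and which dampens its signal, was at 109, 75.0, 114 and 69.6 CPM in the combination libraries, against 56.0, 34.9, 35.6 and 41.1 CPM in the Wnt-C59 libraries (log2 fold change 1.13 ± 0.21 SE, edgeR adjusted p = 0.0457). Fscn1, the protein that bundles actin into filopodia, was at 126, 201, 119 and 107 CPM in the combination libraries, against 61.3, 41.8, 66.8 and 52.0 CPM in the Wnt-C59 libraries (log2 fold change 1.32 ± 0.25 SE, edgeR adjusted p = 0.0457). Each of these 4 genes was higher in all 4 combination libraries than in any Wnt-C59 library.

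Slc4a11 (ENSMUSG00000074796), a membrane transporter best known from the corneal endothelium, rose with little spread within either group. It was at 32.1, 35.1, 33.7 and 26.6 CPM in the combination libraries, against 14.3, 14.5, 17.3 and 13.2 CPM in the Wnt-C59 libraries (log2 fold change 1.10 ± 0.16 SE, edgeR adjusted p = 0.0207), and its call held under 18 of 23 alternatives, being lost without combination library 3 (adjusted p = 0.077), Wnt-C59 libraries 1, 2 or 5 (0.062, 0.072 and 0.069) and with the replicate block (0.098). Mfsd2a, a transporter of lysophospholipids with omega-3 fatty acids, was higher (log2 fold change 1.27, adjusted p = 0.0296). The serine protease gene Prss22 (1.47) and the kinase gene Dyrk3 (1.53) complete the 12 largest rises of the rule.

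Outside the rule, and chosen after its values were seen, Bdkrb1 had the largest fitted rise among called genes with counts in both groups. It encodes the bradykinin receptor that tissue injury induces. Bdkrb1 was at 4.11, 7.41, 0.735 and 1.95 CPM in the combination libraries, against 0.205, 0.198, 0.208 and 0.143 CPM in the Wnt-C59 libraries (log2 fold change 4.20 ± 0.61 SE, edgeR adjusted p = 0.0207). Combination libraries 2 and 3 were the highest, and all Wnt-C59 libraries lay near the limit of detection. Spats1 and AC139579.1, chosen likewise, had 0 counts in all 4 Wnt-C59 libraries. Spats1 was at 1.86, 1.54, 1.47 and 2.04 CPM in the combination, its mean at least 11.5-fold and its lowest library at least 9.42-fold higher at a limit of 3 counts per Wnt-C59 library. AC139579.1 was at 4.62, 5.63, 9.61 and 1.31 CPM in the combination, its mean at least 35.2-fold and its lowest library at least 8.41-fold higher, and had 0 counts in the 7 vehicle libraries too. These bounds cover counting error only.

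Genes of the unfolded protein response, through which a cell with misfolded protein in the endoplasmic reticulum makes more chaperones, were mostly higher in the combination. Of 15 tested, 1 was called higher, 0 lower and 14 not called, 6 were higher and 0 lower without overlap (5.81% and 7.28% of all genes), and 13 had a positive log2 fold change, with a median of 0.64. The called member, Pdia4 (ENSMUSG00000025823), a disulphide isomerase of the endoplasmic reticulum, was at 149.5, 214, 131 and 183 CPM in the combination libraries, against 101, 97.6, 93.7 and 96.8 CPM in the Wnt-C59 libraries. The Wnt-C59 libraries lay within 93.7 to 101 CPM and every combination library above them (log2 fold change 0.80 ± 0.15 SE, edgeR adjusted p = 0.0457). Hspa5 (ENSMUSG00000026864), the chaperone BiP that senses unfolded protein, chosen after its values were seen, was at 667, 967, 614 and 647 CPM in the combination libraries, against 329, 388, 400.3 and 371 CPM in the Wnt-C59 libraries. No values overlapped, yet the test missed the threshold (log2 fold change 0.96 ± 0.19 SE, edgeR adjusted p = 0.0547). Creld2, a secreted chaperone chosen likewise, was at 112, 198, 76.7 and 89.6 CPM in the combination libraries, against 36.1, 45.7, 55.3 and 44.2 CPM in the Wnt-C59 libraries (log2 fold change 1.39 ± 0.31 SE, edgeR adjusted p = 0.0688). Of the others without overlap, the chaperones Calr and Hsp90b1 stood at 0.72 and 0.60, and Atf4, the transcription factor of the amino acid response, at 0.64, all chosen likewise and none called. Combination library 3 was the highest for each of these 6 genes. When combination libraries 4 and 5 were left out, 5 of the 15 were called higher, namely Hspa5 (1.15), Atf4 (0.88), Sdf2l1 (1.89), Pdia4 (0.92) and Creld2 (1.80), and the median was 0.88. Without combination library 3 the value of Pdia4 was 0.67 (adjusted p = 0.088).

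The promoters of this group are shown because its members lay higher together, and because several hold the element through which the pathway is known to act. That element, the ER stress response element, was searched as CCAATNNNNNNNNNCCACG on both strands in the 250 bases before the start of each gene, in sequences from RefSeq (build GRCm38.p6, matched by symbol). It was present in 4 of the 15 promoters (26.7%), against 17 of 12764 tested genes with a promoter (0.133%), and in 0 of 13 called higher and 0 of 17 called lower genes with a promoter. The list was written from known genes of this pathway, so its share describes the list and is no result of these data. The 4 were Hspa5, Hsp90b1, Calr and Creld2, with 2 copies in Hsp90b1. A match is a description of letters and not evidence of binding. The sequences run 5′ to 3′ on the strand of the gene up to its start, and capitals mark the element. The promoter of the called gene Pdia4 follows for comparison and has no match in this window.
Hspa5 promoter, chr2:34771840-34772089, plus strand: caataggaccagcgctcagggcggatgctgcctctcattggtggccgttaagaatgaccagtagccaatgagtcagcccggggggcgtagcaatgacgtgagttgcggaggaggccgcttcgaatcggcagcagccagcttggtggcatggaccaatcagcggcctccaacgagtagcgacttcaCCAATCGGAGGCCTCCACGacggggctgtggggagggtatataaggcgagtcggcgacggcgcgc
Creld2 promoter, chr15:88819396-88819645, plus strand: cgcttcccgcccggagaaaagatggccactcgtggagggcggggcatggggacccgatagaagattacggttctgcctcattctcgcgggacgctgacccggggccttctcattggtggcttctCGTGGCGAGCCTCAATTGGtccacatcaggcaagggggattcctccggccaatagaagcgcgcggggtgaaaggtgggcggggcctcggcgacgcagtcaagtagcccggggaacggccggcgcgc
Hsp90b1 promoter, chr10:86705445-86705694, minus strand: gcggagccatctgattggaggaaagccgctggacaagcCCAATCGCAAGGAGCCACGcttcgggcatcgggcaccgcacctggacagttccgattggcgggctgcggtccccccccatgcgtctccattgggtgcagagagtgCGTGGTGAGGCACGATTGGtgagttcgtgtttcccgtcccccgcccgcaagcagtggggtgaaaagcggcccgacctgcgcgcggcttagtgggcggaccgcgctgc
Calr promoter, chr8:84846932-84847181, minus strand: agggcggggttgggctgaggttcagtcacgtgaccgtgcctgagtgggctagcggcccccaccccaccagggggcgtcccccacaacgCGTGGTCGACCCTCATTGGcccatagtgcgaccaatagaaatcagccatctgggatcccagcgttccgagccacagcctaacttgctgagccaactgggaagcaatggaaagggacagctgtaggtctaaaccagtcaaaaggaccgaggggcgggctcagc
Pdia4 promoter, chr6:47813513-47813762, minus strand: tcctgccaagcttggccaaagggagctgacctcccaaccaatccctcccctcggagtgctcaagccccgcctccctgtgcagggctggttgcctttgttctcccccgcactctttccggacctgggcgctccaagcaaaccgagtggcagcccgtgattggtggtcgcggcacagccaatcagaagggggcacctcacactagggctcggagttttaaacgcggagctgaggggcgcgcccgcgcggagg
In the Hspa5 promoter the element ends 46 bases before the start, in Creld2 107 and in Calr 143 bases before it, and in Hsp90b1 the copies end 193 and 88 bases before it. The 4 genes with the element had log2 fold changes of 0.96, 1.39, 0.60 and 0.72 in this order of sequences, and Pdia4 without it had 0.80.

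Mast cell genes mostly separated the groups, with most of them higher in the combination, although 0 of 11 were called (edgeR, with 9 at an unadjusted p under 0.05, 7 by DESeq2 and 2 by limma-voom). Mast cells are tissue-resident granulocytes that store proteases and histamine. Of 11 tested members, 8 were higher and 1 lower without overlap, against 5.81% and 7.28% of all genes, and the median was 1.82 (1.65 without combination libraries 4 and 5). Tpsb2, a tryptase, had the smallest adjusted p and was at 52.1, 29.6, 42.8 and 37.5 CPM in the combination libraries, against 17.8, 2.63, 5.83 and 7.08 CPM in the Wnt-C59 libraries (log2 fold change 2.28 ± 0.47 SE, edgeR adjusted p = 0.065). The chymase Mcpt4, chosen after its values were seen, was at 57.9, 46.2, 64.7 and 74.1 CPM in the combination libraries, against 13.5, 1.98, 16.3 and 17.6 CPM in the Wnt-C59 libraries (log2 fold change 2.30 ± 0.48 SE, edgeR adjusted p = 0.0652). Cpa3, a carboxypeptidase of the granules chosen likewise, was at 24.1, 16.0, 30.9 and 32.6 CPM in the combination libraries, against 7.48, 1.39, 7.19 and 10.4 CPM in the Wnt-C59 libraries (log2 fold change 1.97 ± 0.45 SE, edgeR adjusted p = 0.0737). In each of the 3 genes Wnt-C59 library 2 was the lowest of all 8, and without it Tpsb2 stood at 1.98 (adjusted p = 0.12). Kit, the receptor for stem cell factor that mast cells need, was at 9.97, 9.86, 20.2 and 11.8 CPM in the combination libraries, against 6.10, 4.61, 7.76 and 5.04 CPM in the Wnt-C59 libraries, with combination library 4 the highest (log2 fold change 1.14 ± 0.25 SE, edgeR adjusted p = 0.0678). Melanocytes also carry Kit. Mrgprb2, the receptor through which mouse connective tissue mast cells answer peptides and drugs, ran the other way. It was at 1.05, 1.35, 2.83 and 3.44 CPM in the combination libraries, against 5.79, 6.20, 5.36 and 4.80 CPM in the Wnt-C59 libraries (log2 fold change −1.36 ± 0.32 SE, edgeR adjusted p = 0.0773), lowest in combination libraries 2 and 3, and was called without libraries 4 and 5 (−2.20, adjusted p = 0.0064). The summed mast cell level was 243, 205, 229 and 237 CPM in the combination, against 97.7, 32.5, 74.2 and 75.0 CPM under Wnt-C59, and 277, 121 and 212 CPM in allogeneic and 94.6, 64.1, 91.4 and 90.8 CPM in syngeneic vehicle skin.

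**Figure D4:**
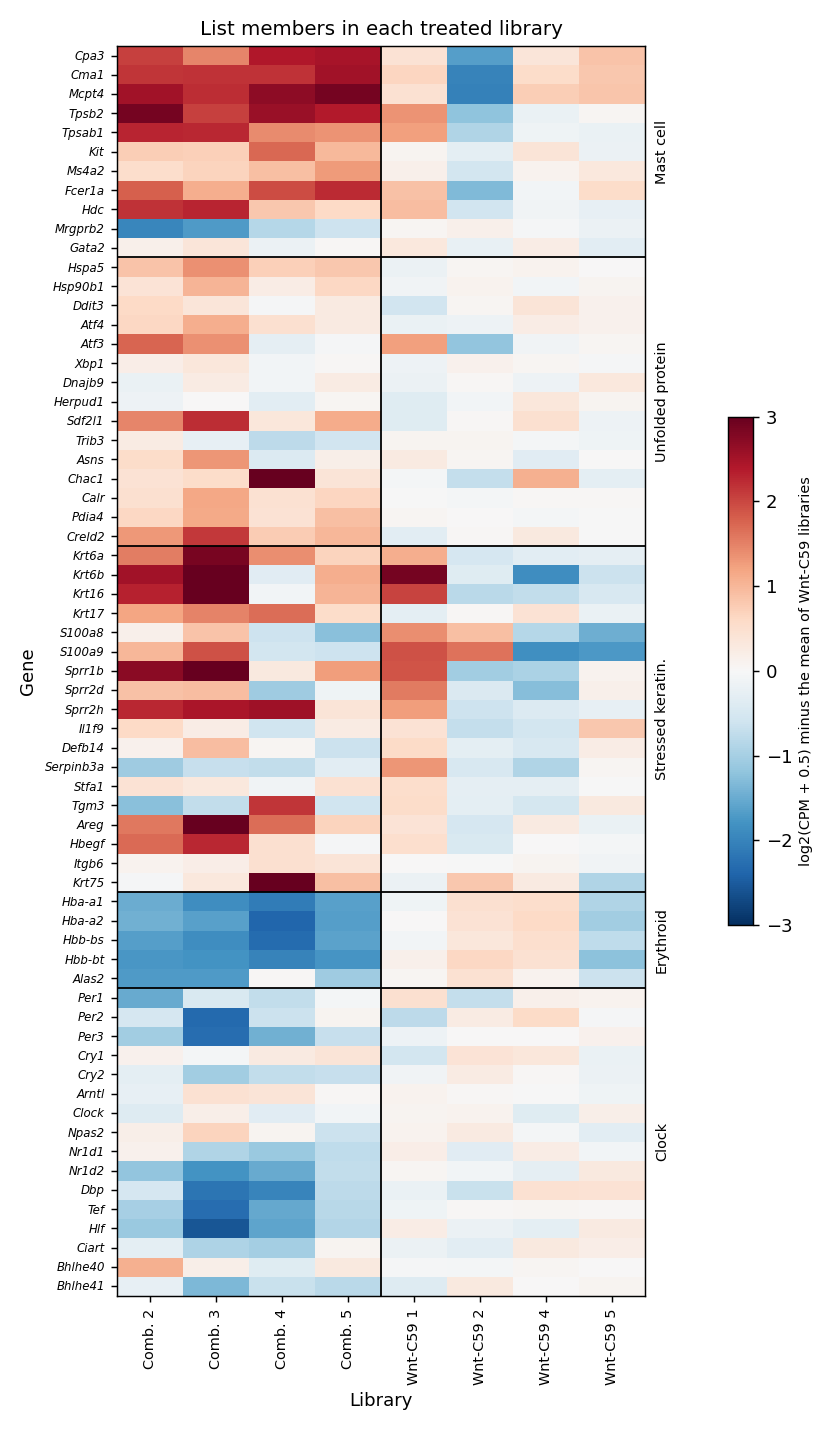
Each tested member (rows) of 5 gene lists in the 8 treated libraries (columns, combination left of Wnt-C59), coloured by log2(CPM + 0.5) minus the mean of the 4 Wnt-C59 libraries, with colours capped at 3 either way. Mast cell and unfolded protein response genes are mostly red and erythroid and clock genes mostly blue across the combination, and the stressed keratinocyte genes Krt6a, Krt16 and Areg are reddest in combination library 3.

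Erythroid genes lay lower in the combination, without a call. Their summed level was 201, 170.2, 129 and 189.8 CPM in the combination, against 573, 795, 853 and 315 CPM under Wnt-C59, so the groups did not overlap. Hbb-bs, an adult beta globin, was at 63.1, 55.0, 40.2 and 65.9 CPM in the combination libraries, against 190.1, 253, 282 and 118 CPM in the Wnt-C59 libraries (log2 fold change −1.91 ± 0.47 SE, edgeR adjusted p = 0.0789). Of the 5 members 0 were called (edgeR, with 4 at an unadjusted p under 0.05, 4 by DESeq2 and 0 by limma-voom), with a median of −1.87. Of them 4, all globins, were lower without overlap, against 7.28% of all genes. The globin copies are near-identical, so reads shared between them make each one uncertain.

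Clock genes leaned lower too. Of 16 tested, 0 were called (edgeR, with 5 at an unadjusted p under 0.05, 4 by DESeq2 and 0 by limma-voom), 0 were higher and 5 lower without overlap (5.81% and 7.28% of all genes), and the median was −0.67 (−0.67 without combination libraries 4 and 5). The smallest adjusted p was that of Cry2, a repressor of the clock, at 53.1, 31.5, 39.0 and 40.2 CPM in the combination libraries, against 60.7, 76.8, 66.2 and 57.9 CPM in the Wnt-C59 libraries (log2 fold change −0.68 ± 0.20 SE, edgeR adjusted p = 0.0994). The other members without overlap, chosen after their values were seen, were the output factors Tef (−1.31) and Hlf (−1.45), the repressor Per3 (−1.28) and the nuclear receptor Nr1d2 (−1.29). Tef was at 88.5, 35.8, 61.1 and 99.7 CPM in the combination libraries, against 161, 182, 185 and 181 CPM in the Wnt-C59 libraries. Its Wnt-C59 values were close together and its combination values spread widely, with library 3 the lowest. The activators Clock and Arntl, chosen likewise, stood at −0.16 and 0.19. The labels give no hour of tissue collection, and its part in these values was not tested.

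Genes of Wnt signalling, the pathway that Wnt-C59 inhibits in both groups, were not called with all libraries. Of 17 tested Wnt targets 0 were called (edgeR, with 5 at an unadjusted p under 0.05, 3 by DESeq2 and 0 by limma-voom), 0 were without overlap, and the median was 0.34, or −0.55 without combination libraries 4 and 5. Without those libraries the list member Myc, chosen after its values were seen, was called higher. Axin2, a feedback inhibitor that Wnt signals induce, was at 19.7, 21.2, 18.0 and 33.9 CPM in the combination libraries, against 71.0, 80.3, 31.4 and 24.9 CPM in the Wnt-C59 libraries. Combination library 5 lay above Wnt-C59 libraries 4 and 5, so the groups overlapped (log2 fold change −1.16 ± 0.35 SE, edgeR adjusted p = 0.109). Lef1, a transcription factor of Wnt signals that is abundant in hair matrix, was at 2.37, 2.55, 26.3 and 26.2 CPM in the combination libraries, against 5.95, 2.98, 3.18 and 2.71 CPM in the Wnt-C59 libraries, high in the 2 libraries with hair follicle RNA only (log2 fold change 1.95 ± 0.68 SE, edgeR adjusted p = 0.144). Wnt11, a ligand, followed the same libraries at 13.4, 10.5, 92.2 and 27.5 CPM in the combination libraries, against 7.28, 9.87, 10.1 and 8.17 CPM in the Wnt-C59 libraries, and its log2 fold change of 2.02 was 0.45 without them. Porcn, the target of Wnt-C59, was at 22.0, 24.0, 34.8 and 22.4 CPM in the combination libraries, against 29.6, 13.2, 17.2 and 22.2 CPM in the Wnt-C59 libraries, with overlap (log2 fold change 0.33 ± 0.31 SE, edgeR adjusted p = 0.575).

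Fibrosis genes did not separate the groups by a call. Col1a1, the main collagen of dermis, was at 1031, 859.5, 1708 and 2492 CPM in the combination libraries, against 1144, 2025, 1725 and 1076 CPM in the Wnt-C59 libraries. Its groups overlapped fully (log2 fold change 0.03 ± 0.39 SE, edgeR adjusted p = 0.981), and the value was −0.64 without combination libraries 4 and 5. Col3a1 had a log2 fold change of 0.22 (adjusted p = 0.688) with overlap. Of 19 collagens 0 were called (edgeR, with 9 at an unadjusted p under 0.05, 3 by DESeq2 and 0 by limma-voom). They leaned higher, with 14 positive and 5 negative and a median of 0.45 (0.21 without those libraries). Without overlap, 6 were higher and 2 lower, against 5.81% and 7.28% of all genes. Col7a1, which anchors epidermis to dermis, had the smallest adjusted p and lay lower, at 88.3, 57.6, 62.9 and 98.7 CPM in the combination libraries, against 142, 131, 141 and 135 CPM in the Wnt-C59 libraries (log2 fold change −0.84 ± 0.21 SE, edgeR adjusted p = 0.078). Of 23 genes of matrix assembly 0 were called (edgeR, with 7 at an unadjusted p under 0.05, 3 by DESeq2 and 0 by limma-voom), with a median of 0.31, led by the fibrillin gene Fbn1 (0.93), and of 16 myofibroblast markers 0 were called (edgeR, with 3 at an unadjusted p under 0.05, 2 by DESeq2 and 0 by limma-voom) and all 16 overlapped, with a median of 0.13.

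Tnc, or tenascin-C, a matrix protein of wounds, was the TGF-beta list member with the smallest adjusted p. It was at 331, 1438, 148 and 154 CPM in the combination libraries, against 79.7, 22.1, 28.6 and 55.2 CPM in the Wnt-C59 libraries. The groups did not overlap, but combination library 3 exceeded every other library several-fold (log2 fold change 3.48 ± 0.74 SE, edgeR adjusted p = 0.0692). Without combination libraries 4 and 5 it was called (4.26, adjusted p = 0.013), as was Thbs1 (1.66), a target of TGF-beta chosen after its values were seen. Of the 18 genes in the list 0 were called with all libraries (edgeR, with 5 at an unadjusted p under 0.05, 4 by DESeq2 and 0 by limma-voom), and the median was 0.10. Timp1, an inhibitor of matrix proteases, was at 68.1, 147, 12.4 and 41.8 CPM in the combination libraries, against 17.0, 3.22, 5.99 and 6.13 CPM in the Wnt-C59 libraries, with overlap and with combination library 3 again highest (log2 fold change 3.06 ± 0.72 SE, edgeR adjusted p = 0.078). Timp1 was called without combination libraries 4 and 5 (3.74, edgeR adjusted p = 0.0242).

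T cell genes were not called in either direction. Cd3e, the CD3 epsilon chain that signals for the T cell receptor, was at 8.61, 3.61, 4.52 and 5.07 CPM in the combination libraries, against 5.54, 3.62, 3.33 and 3.23 CPM in the Wnt-C59 libraries (log2 fold change 0.47 ± 0.31 SE, edgeR adjusted p = 0.397), and the 17 T cell genes gave 0 calls (edgeR, with 1 at an unadjusted p under 0.05, 1 by DESeq2 and 0 by limma-voom) and a median of 0.35 with all 17 overlapping. Foxp3, the defining factor of regulatory T cells, was at 7.25, 4.18, 2.20 and 4.25 CPM in the combination libraries, against 2.20, 1.74, 0.937 and 1.38 CPM in the Wnt-C59 libraries. The lowest combination value lay only just above the highest Wnt-C59 value (log2 fold change 1.52 ± 0.40 SE, edgeR adjusted p = 0.0846), and without combination libraries 4 and 5 it was called (1.87, adjusted p = 0.0459). The 11 regulatory T cell genes gave 0 calls (edgeR, with 3 at an unadjusted p under 0.05, 1 by DESeq2 and 0 by limma-voom) and a median of 0.08. Of 15 Th17 and follicular helper genes only 9 passed the filter on low counts, with 0 calls (edgeR, with 4 at an unadjusted p under 0.05, 3 by DESeq2 and 0 by limma-voom), 0 higher and 3 lower without overlap (5.81% and 7.28% of all genes) and a median of −0.13. Il6ra, the receptor chain for interleukin 6, had the smallest adjusted p of them and was at 46.8, 42.1, 36.9 and 54.1 CPM in the combination libraries, against 89.3, 79.4, 66.3 and 76.3 CPM in the Wnt-C59 libraries. The groups did not overlap (log2 fold change −0.79 ± 0.20 SE, edgeR adjusted p = 0.078), and the log2 fold change was −0.80 without combination libraries 4 and 5 (adjusted p = 0.0994). Il17a, the Th17 cytokine, was among those filtered out. Stat3 stood at 0.34 (adjusted p = 0.402) and Irf4 at −0.35 (adjusted p = 0.624).

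Interferon-gamma response genes leaned lower, with 19 of 24 negative, a median of −0.40, 0 calls (edgeR, with 2 at an unadjusted p under 0.05, 0 by DESeq2 and 0 by limma-voom) and all 24 overlapping. Cxcl9, a chemokine that interferon-gamma induces, was at 52.8, 18.1, 33.4 and 38.9 CPM in the combination libraries, against 138, 14.8, 21.0 and 57.7 CPM in the Wnt-C59 libraries. Wnt-C59 library 1 was the highest and the groups overlapped widely (log2 fold change −0.69 ± 0.64 SE, edgeR adjusted p = 0.561). Type I interferon genes had a median of −0.11 over 18, all overlapping. MHC class II genes had a median of 0.55 over 12, all 12 positive, with 1 higher without overlap (5.81% of all genes), namely the lysosomal reductase Ifi30 (0.72, adjusted p = 0.0849). Macrophage markers had 0 calls (edgeR, with 6 at an unadjusted p under 0.05, 1 by DESeq2 and 0 by limma-voom) and a median of 0.62 over 17, with Cd68 without overlap (0.71, adjusted p = 0.0966). Of those 6 markers 5 were higher and 1 lower, and log2 fold changes in the list ran from −3.40 to 0.80. The 27 chemokines had 0 calls (edgeR, with 11 at an unadjusted p under 0.05, 7 by DESeq2 and 0 by limma-voom), a median of 0.71 and 2 members higher without overlap (5.81% of all genes). Cxcl14, a chemokine of resting epithelium, had the smallest adjusted p. It was at 301, 323, 514 and 182 CPM in the combination libraries, against 117, 104, 165 and 131 CPM in the Wnt-C59 libraries (log2 fold change 1.35 ± 0.29 SE, edgeR adjusted p = 0.0669).

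Keratinocyte genes of wounding were higher in some combination libraries. The 18 tested stressed keratinocyte genes had a median of 1.14, 0 calls (edgeR, with 8 at an unadjusted p under 0.05, 3 by DESeq2 and 0 by limma-voom) and 3 members higher without overlap (5.81% of all genes). Krt17, a keratin of activated epidermis and of follicles, was at 4813, 5971, 6855 and 3119 CPM in the combination libraries, against 1753, 2194, 2886 and 1858 CPM in the Wnt-C59 libraries (log2 fold change 1.26 ± 0.31 SE, edgeR adjusted p = 0.078). Krt16, chosen after its values were seen, was at 1451, 5124, 277 and 595 CPM in the combination libraries, against 1182, 167, 175 and 208 CPM in the Wnt-C59 libraries, where combination library 3 and Wnt-C59 library 1 stood above the rest of their groups (log2 fold change 2.10 ± 0.90 SE, edgeR adjusted p = 0.208). Areg, a ligand of the EGF receptor chosen likewise, was at 9.31, 38.3, 10.1 and 4.75 CPM in the combination libraries, against 3.84, 1.83, 3.49 and 2.38 CPM in the Wnt-C59 libraries (log2 fold change 2.43 ± 0.61 SE, edgeR adjusted p = 0.0803). Fosl1, the immediate early gene with the smallest adjusted p, was highest in combination libraries 2 and 3. It was at 25.6, 81.3, 5.09 and 5.84 CPM in the combination libraries, against 3.74, 1.44, 3.65 and 2.76 CPM in the Wnt-C59 libraries (log2 fold change 3.35 ± 0.89 SE, edgeR adjusted p = 0.0921). With combination libraries 4 and 5 left out, Fosl1 (4.23, adjusted p = 0.0188), Areg (3.07, 0.0273) and the stress keratin gene Krt6a, chosen likewise (2.19, 0.0435), were called. All 17 immediate early genes had positive log2 fold changes, and 4 were higher without overlap (5.81% of all genes). Their median was 0.48, with 0 calls (edgeR, with 6 at an unadjusted p under 0.05, 4 by DESeq2 and 0 by limma-voom). The 12 basal keratinocyte genes gave 0 calls (edgeR, with 4 at an unadjusted p under 0.05, 2 by DESeq2 and 1 by limma-voom), with Krt14 at 0.54 (adjusted p = 0.273) and a median of −0.05. Dst, the gene of the hemidesmosome linker BP230, lay lower without overlap at 213, 183, 219 and 252 CPM in the combination libraries, against 474, 441, 496 and 449 CPM in the Wnt-C59 libraries (log2 fold change −1.10 ± 0.22 SE, edgeR adjusted p = 0.0547), and was called without combination libraries 4 and 5 (−1.22, adjusted p = 0.0453).

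Hair follicle genes had the highest median of all lists, 8.62 over 28 (8.62 with genes at 0 in a group set to their bound), with 0 calls (edgeR, with 24 at an unadjusted p under 0.05, 21 by DESeq2 and 0 by limma-voom), while in combination libraries 2 and 3 their summed level lay below that of every Wnt-C59 library. Without libraries 4 and 5 the median was −0.32. Krt25, an inner root sheath keratin chosen after its values were seen, was at 0, 0, 7647 and 1312 CPM in the combination libraries, against 0, 0, 0 and 0.0951 CPM in the Wnt-C59 libraries. Shh, the signal of the growing follicle chosen likewise, was at 0.233, 0.0481, 4.24 and 18.2 CPM in the combination libraries, against 0.0513, 0.0496, 0.104 and 0 CPM in the Wnt-C59 libraries, highest in library 5, whereas the structural genes were highest in library 4. Cell cycle genes lay higher in the same libraries. Their score, the mean log2 CPM of 20 members, was 4.20, 4.54, 4.71 and 5.24 in the combination, against 4.40, 4.14, 4.15 and 4.42 under Wnt-C59. All 20 had positive log2 fold changes (median 0.50), and the median was 0.02 without libraries 4 and 5.

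Vehicle libraries give the context of these levels, but they also differ from all treated libraries in ways the labels do not name. Malat1, a nuclear RNA, was at 95.4, 93.1, 136 and 71.9 CPM in the combination libraries, against 125, 94.1, 65.0 and 94.3 CPM in the Wnt-C59 libraries, and at 2797 to 3501 CPM in allogeneic and 1071 to 2979 CPM in syngeneic vehicle libraries. Treatment and such a difference cannot be told apart, so levels across this divide are given as values only. Within the treated libraries Malat1 did not separate the groups (log2 fold change 0.07 ± 0.28 SE, edgeR adjusted p = 0.919). Mylk averaged 72.8 ± 11.7 CPM in the combination, 163 ± 22.3 CPM under Wnt-C59 (SD, n = 4 each), 107 ± 24.3 CPM in allogeneic (n = 3) and 85.5 ± 8.57 CPM in syngeneic vehicle skin (n = 4). Ucp3 averaged 5.25 ± 1.60 CPM in the combination, 27.2 ± 7.14 CPM under Wnt-C59, 13.8 ± 4.83 CPM in allogeneic and 5.86 ± 2.22 CPM in syngeneic vehicle skin. Igfbp3 averaged 90.1 ± 16.4 CPM in the combination, 217 ± 34.8 CPM under Wnt-C59, 169.9 ± 39.5 CPM in allogeneic and 60.9 ± 11.4 CPM in syngeneic vehicle skin. Smox averaged 172 ± 51.9 CPM in the combination, 58.5 ± 13.1 CPM under Wnt-C59, 121 ± 33.7 CPM in allogeneic and 62.4 ± 7.70 CPM in syngeneic vehicle skin.

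Without combination libraries 4 and 5, the 380 calls included genes with large differences that the full comparison did not call. Chosen after their values were seen, these were Bcl3, a partner of NF-kappa-B (2.70, adjusted p = 0.000532), the hyaluronan synthase Has1 (4.53, 0.00355), the hyaluronan-binding inflammatory protein Tnfaip6 (3.75, 0.0064) and Odc1, the first enzyme of polyamine synthesis (1.92, 0.00746). Bcl3 was at 144, 222, 27.5 and 44.0 CPM in the combination libraries, against 34.4, 29.0, 27.0 and 22.9 CPM in the Wnt-C59 libraries (log2 fold change 1.95 ± 0.51 SE, edgeR adjusted p = 0.0849 with all libraries). Has1 was at 28.2, 80.1, 3.28 and 5.97 CPM in the combination libraries, against 2.67, 1.54, 2.86 and 2.42 CPM in the Wnt-C59 libraries, and Odc1 at 254, 424, 123 and 134 CPM in the combination libraries, against 102, 86.2, 94.7 and 79.9 CPM in the Wnt-C59 libraries. Combination libraries 2 and 3 were the high ones for each, and libraries 4 and 5 lay nearer to the Wnt-C59 values. These calls rest on 2 combination libraries, so that a difference between individual samples and an effect of treatment cannot be told apart.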

How the data were processed

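The RNA came from mouse skin, and 8 of the 15 libraries, 4 of the combination and 4 of Wnt-C59, entered the comparison. Values in the deposited table are estimated counts, given per gene with decimals and not scaled for depth. FastQC, Trim Galore, HISAT2, featureCounts and the genome build GRCm39 are named, per the submitters' processing notes. Versions, strand setting and the program behind the table are not given in the sources used here, so genes with near-identical copies and overlapping or antisense genes are uncertain. Symbols were matched by identifier for 51276 of 56059 genes from GENCODE M21, whose build, GRCm38, differs from that of the study.

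Estimated counts were rounded to whole numbers. Genes were kept by filterByExpr of edgeR 4.0.16 (R 4.3.3) with the 4 groups, libraries were scaled by TMM, and a robust quasi-likelihood model with the group as its only term was fitted to all 15 libraries. A gene was called at a Benjamini-Hochberg adjusted p under 0.05 over 18651 genes, and log2 fold changes are combination over Wnt-C59. List medians are over tested members. DESeq2 1.42.0, limma 3.58.1 (voom), other scalings, filters and samples, and skeletal muscle, adipocyte or hair follicle scores as covariates were alternatives. The steps were checked on simulated data.

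The members and gene lists were chosen with earlier results of these data known. Genes were named by rule if they were among the 12 largest rises or 12 largest falls of called genes whose groups did not overlap and whose higher group averaged 5 CPM or more, leaving out immune receptor segments, clone names, pseudogenes and sex-linked genes. Up to 4 called members of each list were added (for a list with no call, its member of smallest adjusted p), and 17 fixed genes. Some genes are not reported here. Other genes are marked as chosen after their values were seen.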

Additional observations from a re-analysis of the deposited data

Results flagged for a closer look

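A library was marked where it stood far from the other 3 of its group, its gap to the nearest one exceeding Dixon's 95% critical value for 4 samples. Of 376 groups of 4 examined, 18 were marked, and chance alone marks about 1 in 20. Every value below is in CPM unless it is said to be a score, and the cause was not tested for any.

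Among genes called between the groups, C130079G13Rik was highest in combination library 3 at 29.39 against 19.09 in the nearest combination library. Wnt-C59 library 5 was the lowest of its group for Bdkrb1 (0.1426, nearest 0.1984) and for Mrvi1 (18.01, nearest 26.77). Wnt-C59 library 1 was the lowest for Phlda2 (1.23, nearest 1.587) and the highest for Dyrk3 (2.819, nearest 1.979).

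Mast cell proteases stood out in both groups. Cma1, a chymase, was highest in combination library 5 at 40.62 (nearest 31.54), and lowest in Wnt-C59 library 2 at 1.289 (nearest 9.895). Mcpt4 was lowest in Wnt-C59 library 2 as well, at 1.984 (nearest 13.48). The same library was lowest for Ccr7, a homing receptor of dendritic and T cells (1.19, nearest 2.519), and for Srxn1, an antioxidant enzyme that NRF2 induces (35.91, nearest 45.29).

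Wnt-C59 library 1 was the highest of its group for Krt6a (1471, nearest 574.8) and Krt16 (1182, nearest 208.2), keratins of stressed epidermis. It was the lowest for Tef (161, nearest 181.2), a clock output factor, and for the mean log2 CPM of the thermogenic genes (a score of 3.845, nearest 4.103). Wnt-C59 library 5 was the lowest for Mcm5, a helicase subunit of DNA replication (50.52, nearest 80.1), and for Myh11 (191.3, nearest 263.3), and the highest for Krt25 (0.09505, the others at 0). Combination library 4 had the highest score of PPAR targets in its group (6.094, nearest 5.712).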

How the results depend on the processing

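Against 43 genes called in the full comparison (19 higher, 24 lower, 7 of them list members), RLE size factors gave 41 and upper quartile factors 53. With no filter on low counts 46 were called, with at least 50 counts in 4 libraries 54 and with unrounded values 43. Total counts only gave 31, of which 11 were higher. Each count here is of all genes called under that alternative, not of the part of the 43 that remained. DESeq2 called 1506 (901 higher, 605 lower, 134 list members) and limma-voom 65 (40 lower, 12 list members). An adjusted p under 0.1 gave 761 (413 higher, 348 lower, 84 list members). With the 8 treated libraries only, 18 were called (3 higher, 15 lower, 4 list members). As covariates, the skeletal muscle score gave 9 (5 higher, 4 lower, 3 list members), the adipocyte score 27 (8 higher) and the hair follicle score 375 (277 higher, 98 lower, 38 list members). Removing the GC trend gave 67 (39 lower). Without combination libraries 4 and 5, chosen after seeing the data, there were 380 (257 higher, 123 lower, 39 list members).

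Leaving out 1 library at a time gave 1 to 45 called genes, 0 to 31 higher, 1 to 15 lower and 0 to 8 list members. The count moved by more than 1.5 times without combination library 2 (17) or 3 (1) and without Wnt-C59 library 1 (3), 2 (3), 4 (12) or 5 (5). Column numbers 2, 4 and 5 occur in both groups, but the correlations of the paired deviations were 0.05, 0.02 and 0.11, so the numbers were not taken to pair the samples. With the replicate block 13 genes were called (11 higher, 2 lower, 4 list members), against 2 in the same libraries without it. The cause of these shifts was not tested, except that the fits with fewer libraries have fewer samples by construction.

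Over all alternatives 3139 values of named genes were computed. Of these 2574 kept their call status and direction, 442 lost a call, 123 gained one and 0 called values changed sign, while 42 uncalled ones did. Of 1173 list medians 41 moved beyond the spread between replicates and 99 changed sign. Depth ran over 18.99 to 28.78 M estimated counts in the treated libraries, and with 4 libraries a group the spread between libraries limits the precision.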

Other observations

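The listed genes of vessel walls had mostly negative log2 fold changes, with 0 calls among them. The called genes Clec14a and Mrvi1, given above as lower, stand outside these lists. Of 13 smooth muscle and pericyte markers 0 were called (edgeR, with 4 at an unadjusted p under 0.05, 4 by DESeq2 and 1 by limma-voom), 11 had a negative log2 fold change, 4 were lower without overlap, against 7.28% of all genes, and the median was −0.50 (−0.17 without combination libraries 4 and 5). Rgs5, a regulator of G protein signals in pericytes, was at 43.1, 31.3, 37.5 and 39.4 CPM in the combination libraries, against 60.7, 54.2, 64.0 and 73.8 CPM in the Wnt-C59 libraries (log2 fold change −0.74 ± 0.15 SE, edgeR adjusted p = 0.0547). The groups did not overlap. The others without overlap, chosen after their values were seen, were Myh11, the smooth muscle myosin (−0.80), Lmod1, an actin nucleator of smooth muscle (−1.01), and Abcc9, a potassium channel subunit of pericytes (−1.46). The 15 endothelial genes gave 0 calls (edgeR, with 4 at an unadjusted p under 0.05, 1 by DESeq2 and 0 by limma-voom) and a median of −0.31 (−0.001 without combination libraries 4 and 5) with all 15 overlapping, and the 7 lymphatic genes 0 calls (edgeR, with 4 at an unadjusted p under 0.05, 4 by DESeq2 and 0 by limma-voom) and a median of −0.43 (−0.09 without those libraries). Prox1, the factor that defines lymphatic endothelium, was at 0.621, 0.866, 1.19 and 1.18 CPM in the combination libraries, against 2.15, 2.83, 1.77 and 2.14 CPM in the Wnt-C59 libraries, without overlap (log2 fold change −1.21 ± 0.30 SE, edgeR adjusted p = 0.078). The 7 lymphatic genes ran from −1.21 to 1.90, with 5 negative and 2 positive. Pdpn, a list member chosen after its values were seen, was called higher without combination libraries 4 and 5.

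Genes of drug metabolism leaned the same way, with 15 of 16 negative, a median of −0.57 and 3 lower without overlap (7.28% of all genes). They had 0 calls (edgeR, with 6 at an unadjusted p under 0.05, 3 by DESeq2 and 0 by limma-voom). Abcg2, a pump that exports drugs, was at 14.4, 17.6, 13.3 and 15.9 CPM in the combination libraries, against 26.0, 24.9, 18.3 and 23.7 CPM in the Wnt-C59 libraries, and every combination library was below every Wnt-C59 library (log2 fold change −0.60 ± 0.15 SE, edgeR adjusted p = 0.0786). The 10 thermogenic genes gave 0 calls (edgeR, with 3 at an unadjusted p under 0.05, 2 by DESeq2 and 0 by limma-voom) and a median of −0.69, and 9 of them were negative. The exception was Dio2, the deiodinase that activates thyroid hormone, at 8.53, 29.4, 6.56 and 12.3 CPM in the combination libraries, against 5.48, 2.48, 3.85 and 4.71 CPM in the Wnt-C59 libraries, without overlap (log2 fold change 1.78 ± 0.39 SE, edgeR adjusted p = 0.0678), and called without combination libraries 4 and 5 (2.21, adjusted p = 0.0188). In that fit Ppargc1a, a thermogenic list member chosen after its values were seen, was called lower, and the list median was −0.30. Adipocyte genes had a median of −0.02 over 17, with the hormone gene Lep at 1.51, higher without overlap (adjusted p = 0.138). Medians were −0.07 over 20 genes of oxidative phosphorylation, 0.19 over 18 of glycolysis and hypoxia and 0.21 over 14 targets of AhR and NRF2, among which Hmox1, chosen after its values were seen, was higher without overlap (0.72, adjusted p = 0.0994).

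In the epidermis, 24 differentiation genes had a median of −0.01, with 3 higher and 1 lower without overlap (5.81% and 7.28% of all genes). Sprr1a, a protein of the cornified envelope that wounds induce, was at 1313, 1238, 3012 and 789 CPM in the combination libraries, against 505, 271, 368 and 372 CPM in the Wnt-C59 libraries (log2 fold change 2.07 ± 0.46 SE, edgeR adjusted p = 0.0704). Combination library 4 was the highest. Tgm1, which crosslinks that envelope (0.84), and the protease gene Klk7 (0.73), chosen after their values were seen, were the other higher members. The 14 genes of bulge stem cells had a median of −0.07, with the bulge keratin Krt15, chosen likewise, at −0.87 and lower without overlap, and the 20 genes of barrier lipids had a median of −0.05. Each of these lists had 0 calls (edgeR, with 5 at an unadjusted p under 0.05, 3 by DESeq2 and 0 by limma-voom for differentiation, 5, 2 and 0 for bulge genes, and 3, 0 and 0 for lipids).

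Among immune cells, medians were 0.59 over 12 dendritic cell genes, −0.08 over 8 B and plasma cell genes, −0.08 over 11 neutrophil genes and −0.08 over 12 cytotoxic genes. For secreted factors they were 0.28 over 18 inflammatory cytokine and receptor genes and 0.20 over 14 complement genes. Il11, a cytokine of stromal cells, was at 2.75, 3.41, 1.81 and 1.27 CPM in the combination libraries, against 0.513, 0.992, 0.677 and 0.855 CPM in the Wnt-C59 libraries, without overlap (log2 fold change 1.60 ± 0.39 SE, edgeR adjusted p = 0.078). Il11 was called without combination libraries 4 and 5 (2.03, edgeR adjusted p = 0.0282). Matrix-degrading enzymes and their inhibitors had a median of 0.44 over 18, Wnt ligands and their secretion genes −0.15 over 17, and Wnt receptors 0.03 over 16. None of these 9 lists had a called member in edgeR, while unadjusted p lay under 0.05 for 20 of their members, a gene in 2 lists counted in each, and DESeq2 called 10 and limma-voom 0.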
